A study of Homo sapiens with 6 samples.

Results

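Aminoacyl-tRNA synthetases are the enzymes that join each amino acid to its tRNA. The genes examined here were 35 synthetase genes chosen by name, of 20037 protein-coding genes on chromosomes 1 to 22, X and Y. They comprised 19 genes for enzymes of the cytosol and 16 for enzymes of the mitochondrion. A ChIP-seq peak was given to a gene when it lay inside the gene body or within 3 kb of it on hg38. Binding was measured in K562, a human chronic myelogenous leukemia cell line, in 2 clones (#4 and #5) that both co-overexpressed USF2 and FLAG-tagged PLAG1-S from a single lentiviral vector. PLAG1-S, a short isoform of the zinc finger factor PLAG1, was pulled down through its FLAG tag, and USF2, a basic helix-loop-helix factor, with its own antibody. Each factor thus had 2 libraries, 1 per clone, and each clone also gave an input library. Each group rests on cell lines that are single clones, and cells without the transgenes were not analysed here, so that binding at endogenous levels of the factors cannot be told apart from binding under overexpression. The FLAG tag is carried by the transgene product only, whereas the USF2 antibody is directed at endogenous and introduced USF2 alike.

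Charged tRNAs are needed in the cytosol, where nuclear messages are translated, and again in the mitochondrion, which translates its own messages. Human mitochondria make glutaminyl-tRNA indirectly: EARS2 charges it with glutamate, which an amidotransferase then converts. Nearly all mitochondrial synthetases are encoded by nuclear genes of their own, named with a final 2. Exceptions in the lists are GARS1 (glycine) and KARS1 (lysine), single genes that give the enzyme of both compartments and that are counted here as cytosolic. Many cytosolic synthetase genes are known targets of ATF4, the transcription factor that raises amino acid supply when charged tRNA runs short, and ATF4 with its partners binds the amino acid response element. USF2 is known to bind the E-box.

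The promoter stretches that carry the E-box CACGTG are shown first, because USF2 covered this motif in both clones at only 1 of the genes searched that held it, EARS2. They were read from RefSeq promoters on GRCh38.p14, which hold 250 bases before and 50 after each start and cover 30 of the 35 genes (not AARS2, LARS1, VARS1, VARS2 and YARS1), so that VARS1, which had a USF2 peak in both clones, was not searched. Of these, 4 held a CACGTG (13.3%), against 10.9% of 15843 protein-coding genes with a promoter sequence. The E-box is in capitals, and each stretch runs 5′ to 3′ along the gene. The glutamyl enzyme gene EARS2 is read from chr16:23557355-23557465 (minus strand), the cysteinyl enzyme gene CARS2 from chr13:110706495-110706543 (minus strand), and the mitochondrial methionyl enzyme gene MARS2 from chr2:197705333-197705388 (plus strand), all for mitochondrial enzymes. The cytosolic isoleucyl enzyme gene IARS1 is read from chr9:92293853-92293908 (minus strand). GARS1, which had USF2 at its start in both clones but no CACGTG in its promoter windows, is shown beside them from chr7:30594655-30594755 (plus strand), with no capitals.
EARS2: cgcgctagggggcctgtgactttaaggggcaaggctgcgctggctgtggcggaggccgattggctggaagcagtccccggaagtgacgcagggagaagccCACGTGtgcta
CARS2: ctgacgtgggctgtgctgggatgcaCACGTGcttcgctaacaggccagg
MARS2: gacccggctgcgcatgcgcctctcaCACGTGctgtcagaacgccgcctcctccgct
IARS1: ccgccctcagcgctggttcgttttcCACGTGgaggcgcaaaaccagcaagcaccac
GARS1: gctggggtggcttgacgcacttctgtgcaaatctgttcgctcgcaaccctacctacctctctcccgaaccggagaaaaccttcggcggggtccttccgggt

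A second set holds the amino acid response element, written TGATGCAA and searched on both strands. It is shown because the genes that hold it are all cytosolic and it is the site of the ATF4 pathway: it was found in 6 of the 16 cytosolic genes with a sequence (37.5%), in 0 of the 14 mitochondrial genes, and in 0.903% of all protein-coding genes with a sequence. The motif is in capitals as it reads along the gene, which is the reverse complement in all but NARS1. The alanyl gene AARS1 is read from chr16:70289661-70289718 (minus strand), the cysteinyl gene CARS1 from chr11:3057403-3057450 (minus strand), IARS1 from chr9:92293678-92293735 (minus strand), the methionyl gene MARS1 from chr12:57488039-57488088 (plus strand), the asparaginyl gene NARS1 from chr18:57621810-57621847 (minus strand) and the threonyl gene TARS1 from chr5:33440942-33440985 (plus strand).
AARS1: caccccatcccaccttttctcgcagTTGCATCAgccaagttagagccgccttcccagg
CARS1: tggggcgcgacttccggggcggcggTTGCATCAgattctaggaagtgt
IARS1: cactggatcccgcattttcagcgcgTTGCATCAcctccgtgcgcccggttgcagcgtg
MARS1: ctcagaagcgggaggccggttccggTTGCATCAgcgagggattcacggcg
NARS1: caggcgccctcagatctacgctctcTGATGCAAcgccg
TARS1: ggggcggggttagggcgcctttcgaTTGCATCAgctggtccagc

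At the thresholds of the deposited lists, PLAG1-S was found at synthetase genes of both compartments in similar proportion, and USF2 at few of them. A peak was called reproducible when the clone 4 interval shared 1 bp or more with a clone 5 interval of that factor. By that rule PLAG1-S had a peak at 20 of the 35 genes (57.1%, 95% Wilson interval 40.9 to 72.0%), against 52.0% of all protein-coding genes. Cytosolic enzymes had one at 11 of 19 genes (57.9%, 36.3 to 76.9%) and mitochondrial enzymes at 9 of 16 (56.2%, 33.2 to 76.9%). These shares lie near the background, and the intervals of the classes cover nearly the same range, so that no difference between cytosolic and mitochondrial enzymes was detectable with these numbers of genes. Within 1 kb of a gene start the counts were 10 of 19 (52.6%) and 7 of 16 (43.8%), against 40.5% of all protein-coding genes. No test was run on these counts, since each factor had 2 libraries and genes are not replicates of a condition, and the intervals cover counting error only.

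Among amino acids whose cytosolic and mitochondrial enzymes have separate, like-named genes in the lists, 13 pairs could be set side by side. Both genes of the pair had a reproducible PLAG1-S peak for 4 amino acids (alanine, cysteine, isoleucine and valine). The cytosolic gene alone had one for 3 (methionine, threonine and tyrosine), the mitochondrial gene alone for 3 (leucine, asparagine and serine), and neither gene for 3 (histidine, arginine and tryptophan). These counts take any peak within 3 kb of the gene, and LARS2 and SARS2 had no reproducible PLAG1-S peak within 1 kb of a start. The shares of the whole classes, 57.9% and 56.2%, lie near the 52.0% of all protein-coding genes. The split of the pairs was not compared with pairs of other genes and shows no pattern by amino acid. Of the cytosolic synthetases, 7 belong to the multi-synthetase complex, in which several enzymes are held together by scaffold proteins, and 3 of these (IARS1, MARS1 and the glutaminyl gene QARS1) had a reproducible PLAG1-S peak, against 8 of the other 12 cytosolic genes and 52.0% of all protein-coding genes. At the start itself 2 of the 7 had one, since the QARS1 peak lay at the start of QRICH1. Within 1 kb of a start, 10 of all 19 cytosolic genes (52.6%) and 40.5% of all protein-coding genes had one. This grouping was chosen after the values were seen.

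The labels give 42.5 M reads for each immunoprecipitated library and 55 M for each input. The clone 4 and clone 5 lists held 37335 and 29613 PLAG1-S peaks and 9144 and 4225 USF2 peaks on the chromosomes used, and 21332 PLAG1-S and 2358 USF2 peaks were reproducible. The weakest PLAG1-S peaks had a q-value of 0.0099 and the weakest USF2 peaks one of 0.0494, so that the factors' counts are not on one scale. At the synthetase genes the lists held 55 and 47 PLAG1-S peaks and 17 and 4 USF2 peaks. None of these 123 peaks was shared by 2 synthetase genes.

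Fold enrichment, the authors' ratio of the signal at a peak's summit to its local background, is given for the strongest reproducible PLAG1-S peak of each gene in clone 4. Its median was 7.56 over the 11 cytosolic genes with a peak (range 3.61 to 13.0) and 7.99 over the 9 mitochondrial genes (range 5.26 to 26.3), against 8.17 over the 10423 protein-coding genes with one. The ranges of the classes overlapped, and both class medians lay below that of all genes. In the clone 5 list alone they were 5.91 and 6.55, over the 13 and 10 genes with a peak there.

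**Figure D1:**
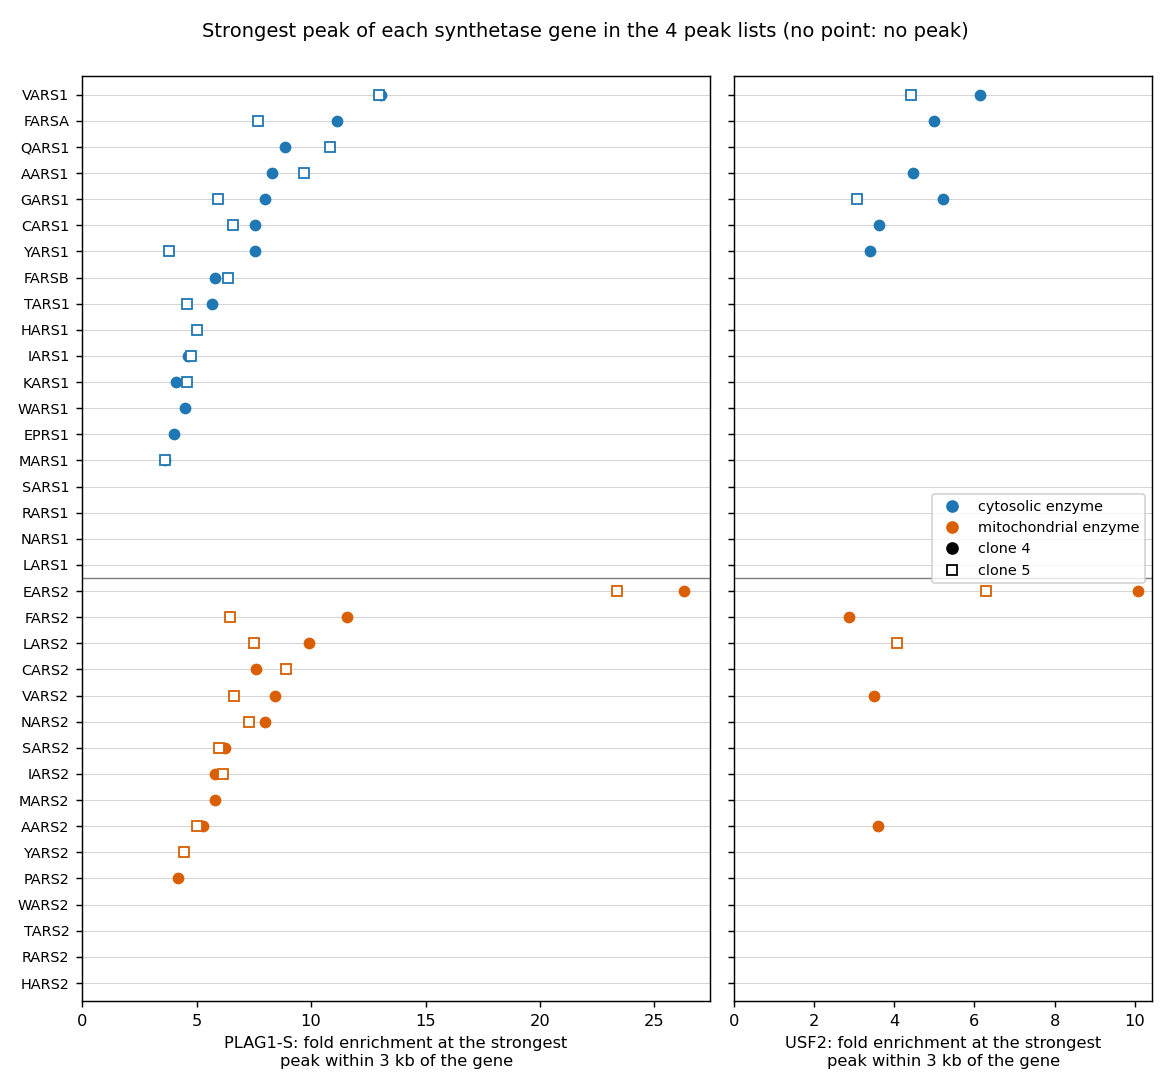
Fold enrichment (horizontal axis, a ratio to local background) at the strongest PLAG1-S (left) and USF2 (right) peak within 3 kb of each of the 35 genes, with cytosolic genes above the grey line and mitochondrial genes below it. Filled circles are clone 4, open squares clone 5, and a missing point means no peak in that list; EARS2 lies apart at 26.3 and 23.4 for PLAG1-S, and most USF2 points come from clone 4 alone.

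Among the cytosolic enzymes the highest PLAG1-S enrichment was at VARS1, the valyl enzyme, with a fold of 13.0 in clone 4 and 12.2 in clone 5 at chr6:31794839-31796092. This wide peak covered the higher-coordinate end of the gene, and 152 fragments lay over its clone 4 summit against a local background of 10.7 fragments. A further peak beyond the other end of VARS1 had folds of 11.8 and 13.0, and its summit lay 62 bp from the start of VWA7, a neighbouring gene. Both clones thus placed strong peaks at both ends of VARS1, and that near VWA7 was slightly the stronger in clone 5.

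FARSA, which encodes the catalytic subunit of cytosolic phenylalanyl-tRNA synthetase, had a fold of 11.1 in clone 4 and 7.69 in clone 5 at its start. FARSB, for the other subunit of the same enzyme, had 5.80 and 6.39 at its own start, with summits 365 and 348 bp upstream. The enzyme's genes therefore both carried PLAG1-S, at unlike folds. QARS1 had folds of 8.88 and 10.8, but this peak lay beyond the 3′ end of the gene with its summit 196 bp from the start of QRICH1, and no reproducible peak lay at the QARS1 start itself.

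At AARS1 the start peak had folds of 8.27 in clone 4 and 9.69 in clone 5, with summits 375 bp apart. GARS1 had 7.97 and 5.91 at its start. CARS1 had 7.56 and 6.58 at a peak inside the gene, 5476 bp from the start, and 6.48 and 6.34 at the start itself. The order of these genes is not firm: in clone 5 VARS1 was followed by QARS1, AARS1 and FARSA, and GARS1 fell below CARS1. YARS1, the tyrosyl gene, differed most between clones, with 7.54 in clone 4 and 3.52 in clone 5. Its clone 4 summit lay 17 bp inside the higher-coordinate end of YARS1 and 101 bp from the start of S100PBP. The clone 5 summit lay 341 bp beyond that end and 46 bp from the S100PBP start. The remaining cytosolic genes with a reproducible peak were TARS1 (5.65 and 4.60), IARS1 (4.63 and 4.73) and MARS1 (3.61 and 3.64), the last near the weakest peaks of its list.

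For the mitochondrial enzymes 1 gene stood apart. EARS2, which charges mitochondrial tRNA with glutamate, had a PLAG1-S peak at chr16:23556626-23558100 with a fold of 26.3 in clone 4 and 23.4 in clone 5. It ranked 577 in the clone 4 list, within the top 1.54%, and 465 in the clone 5 list, within the top 1.56%. Over its summits 124 and 104 fragments were counted against local backgrounds of 3.75 and 3.49. The interval also reaches the start of UBFD1, a ubiquitin-domain gene, 372 bp from the clone 4 summit. The summit itself was at the EARS2 start in both clones.

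FARS2, the mitochondrial phenylalanyl enzyme, had 11.6 in clone 4 and 6.20 in clone 5 at a peak 476095 bp inside a gene of 521650 bp. Another peak, 40856 bp from the start, had 9.83 and 6.46 and was the strongest FARS2 peak of clone 5. The FARS2 peaks near the start were weaker, with 4.30 and 4.58 at one and 3.98 and 4.99 at the other. Each lay within 1 kb of the start of LYRM4, a mitochondrial iron-sulfur assembly gene. The leucyl gene LARS2 had 9.92 and 7.50 at a peak 2395 bp beyond its 3′ end, and a start peak in clone 5 alone (3.94). For both genes the strongest PLAG1-S peak was therefore away from the start.

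VARS2, the mitochondrial valyl enzyme, had 8.41 in clone 4 and 6.63 in clone 5 at its lower-coordinate end. NARS2, the asparaginyl enzyme, had 7.99 and 7.29 at its start, with summits 7 bp apart. CARS2 had 7.43 and 8.89 at a start and 7.58 and 4.20 at a peak 169 bp from the start of ING1, a chromatin gene next to it. These 3 genes lay within the range of the cytosolic enzymes in both clones. The others were SARS2 (6.23 and 5.99, with the summit 1626 bp upstream), IARS2 (5.81 and 6.16) and AARS2 (5.26 and 4.56).

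Of the 34 reproducible PLAG1-S peaks at synthetase genes, 19 lay within 1 kb of the gene's own start, 9 elsewhere inside the gene and 6 in its flank. Of the 19, 5 also lay within 1 kb of the start of another protein-coding gene. Of the 15 peaks away from the start, 6 were within 1 kb of the start of another protein-coding gene (EXOSC6 beside AARS1, SYCE2 beside FARSA, QRICH1 beside QARS1 and ING1 beside CARS2). For the 5 genes whose strand the promoter table did not give (AARS2, LARS1, VARS1, VARS2 and YARS1), either end of the gene was counted as a start. The VARS1 peak near VWA7 is therefore among the 19. These shares of peaks were not computed over all reproducible PLAG1-S peaks, so they mark no trait of these genes. Counted by gene, 17 of the 35 (48.6%) had such a peak within 1 kb of a start, against 40.5% of all protein-coding genes. Genes with a PLAG1-S peak were longer than those without, with medians of 38.3 and 21.2 kb among the synthetases and 28.8 and 19.0 kb among all protein-coding genes, and the part of gene length in the counts was not tested.

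USF2 had a reproducible peak at 3 of the 35 genes (8.57%, 2.96 to 22.4%), against 10.3% of all protein-coding genes. They were GARS1 and VARS1 of the 19 cytosolic genes (10.5%, 2.94 to 31.4%) and EARS2 of the 16 mitochondrial genes (6.25%, 1.11 to 28.3%). All 3 lay within 1 kb of a gene start, where 7.33% of all protein-coding genes had one. All 3 were also co-bound, meaning that the PLAG1-S peak's edges lay within 100 bp of the USF2 peak in the reproducible sets, which was so at 9.98% of all protein-coding genes. The synthetases thus stood near the background for USF2 and for co-binding, and no difference between the classes was detectable. These counts rest on clone 5: in the clone 4 lists alone USF2 was at 6 cytosolic and 4 mitochondrial genes and a co-bound peak at 5 and 3. The share of all protein-coding genes was not computed for clone 4 alone, whose USF2 list held 9144 peaks against 4225 in clone 5.

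At EARS2 the USF2 fold was 10.1 in clone 4 and 6.28 in clone 5, on 47 and 28 fragments over the summit. In both clones and for both factors the summit lay within 8.5 bp of the centre of the E-box printed above. VARS1 had USF2 folds of 6.14 and 4.43, on 65 and 45 fragments, at summits 13 bp apart under the wide PLAG1-S peak.

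GARS1 had the weakest of these, with 4.01 in clone 4 and 3.07 in clone 5, on 26 and 19 fragments. The USF2 summits of both clones and the clone 4 PLAG1-S summit were at the same base, 64 bp into the gene, beyond the stretch printed above. A second USF2 peak further into GARS1 had a fold of 5.23 in clone 4 and no counterpart in clone 5.

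Among all 20037 protein-coding genes, 3361 had USF2 peaks in 1 clone only or in both without overlap. That was so for a further 8 of the 35 synthetase genes, each with a USF2 peak in 1 clone only. In clone 4 these were AARS1 (4.47), CARS1 (3.62), FARSA (4.98), YARS1 (3.40), AARS2 (3.59), FARS2 (2.86) and VARS2 (3.51). LARS2 alone had one in clone 5 only (4.08). All 15 USF2 peaks at synthetase genes that the clones did not share had folds from 2.86 to 5.34. The shared peak of EARS2 lay above this range in both clones (10.1 and 6.28) and that of VARS1 in clone 4 only (6.14, against 4.43). That of GARS1 lay within it in both (4.01 and 3.07). The other 24 genes (68.6%) had no USF2 peak in either clone, against 72.9% of all protein-coding genes.

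For PLAG1-S, 7 of the 35 genes had only peaks that the clones did not share, as had 3168 of 20037 protein-coding genes. EPRS1, the fused glutamyl and prolyl enzyme, had them in clone 4 (highest fold 4.02), as had WARS1 (tryptophanyl, 4.50), MARS2 (5.80) and PARS2 (mitochondrial prolyl, 4.17). HARS1 (histidyl, 5.00) and YARS2 (mitochondrial tyrosyl, 4.43) had one in clone 5. KARS1 had a peak inside the gene in clone 4 (4.08) and others upstream in clone 5 (highest fold 4.57), which did not overlap. All 10 of these peaks had folds from 3.59 to 5.80.

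No PLAG1-S peak was listed in either clone for 8 genes (22.9%), against 32.2% of all protein-coding genes. They were LARS1, NARS1, RARS1 and SARS1 among the cytosolic enzymes, for leucine, asparagine, arginine and serine, and HARS2, RARS2, TARS2 and WARS2 among the mitochondrial enzymes, for histidine, arginine, threonine and tryptophan. None of the 8 had a USF2 peak either. HARS1 and HARS2 lie head to head on chromosome 5, with facing ends at 140691370 and 140691455, and neither factor had a peak at these ends in either clone. The lists hold only peaks past their threshold, so that weaker binding at these genes was not detectable.

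PLAG1-S folds were higher in clone 4 at some synthetase genes and in clone 5 at others. The ratio of clone 5 to clone 4 fold had a median of 0.989 over the 34 PLAG1-S peaks, with 17 (50.0%) higher in clone 4. Over all 21332 reproducible PLAG1-S peaks the median was 0.886 and 66.5% were higher in clone 4. Within the genes the ratio ran from 0.467 at YARS1 to 1.25 at a FARS2 start peak. For USF2 all 3 genes were higher in clone 4, with ratios of 0.766 at GARS1, 0.722 at VARS1 and 0.623 at EARS2.

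The 4 genes with an E-box in the promoter window differed in what covered it. At EARS2 both factors covered it in both clones. At IARS1 PLAG1-S covered it in both clones (4.63 and 4.73), with summits 9.5 and 7.5 bp from its centre, and no USF2 peak was listed. At CARS2 and MARS2 PLAG1-S covered it in clone 4 alone (4.48 and 5.80), with summits 75.5 and 70.5 bp away, and no USF2 peak was listed. Over all protein-coding genes with a sequence, a reproducible USF2 peak lay within 1 kb of the start in 40.2% of those with a CACGTG and in 3.65% of those without, and a PLAG1-S peak in 74.9% and 37.8%. The longer form GTCACGTG was in 0 of the 30 synthetase promoters and in 4.06% of all. The G-rich core GGGCCCC was in WARS1 alone (3.33%), against 15.7% of all, and WARS1 had a PLAG1-S peak in clone 4 only.

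Of the 6 cytosolic genes with an amino acid response element, 5 had a reproducible PLAG1-S peak within 1 kb of the start (AARS1, CARS1, IARS1, MARS1 and TARS1), and NARS1 had none in either clone. Of the other 10 cytosolic genes with a sequence 3 had one. Over all protein-coding genes the shares ran the other way, with 32.9% of the 143 genes holding the element and 41.9% of those without it. The PLAG1-S interval covered the element in both clones at AARS1, CARS1 and IARS1 and in clone 4 at TARS1, and at MARS1 it ended short of it. The summit was nearest to it at AARS1 in clone 4 (20.5 bp) and in clone 5 lay 354.5 bp away, so that no fixed distance was seen. None of the 6 had a reproducible USF2 peak.

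Other genes that serve tRNA charging and its use were taken from 3 lists. Of 15 accessory genes, which encode scaffold, editing and tRNA-finishing proteins, 9 had a reproducible PLAG1-S peak (60.0%, 35.7 to 80.2%, against 52.0% of all protein-coding genes) and 2 a USF2 peak (13.3%, against 10.3%). AIMP2, a scaffold of the multi-synthetase complex, had PLAG1-S folds of 36.1 in clone 4 and 35.6 in clone 5 and USF2 folds of 10.4 and 9.94, above every synthetase gene in PLAG1-S. The clone 4 PLAG1-S summit lay 69 bp upstream of the AIMP2 start and 390 bp from that of PMS2, a DNA mismatch repair gene. TRNT1, which adds the terminal CCA to tRNAs, had PLAG1-S folds of 11.9 and 9.19 and USF2 folds of 4.43 and 4.46. Both AIMP2 and TRNT1 were co-bound. EEF1E1, a further member of the complex, had PLAG1-S folds of 12.3 and 9.20, and AIMP1, its remaining scaffold, a peak in clone 4 only (5.47).

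The 10 elongation factor genes encode proteins that carry charged tRNA to the ribosome or move it along, and proteins that act with those carriers. Of these genes, 6 had a reproducible PLAG1-S peak (60.0%, against 52.0% of all protein-coding genes) and 4 a USF2 peak (40.0%, 16.8 to 68.7%, against 10.3%). The 4 were EEF1A1, EEF1B2, EEF1D and EEF2, all for cytosolic factors. EEF1D had the highest folds, namely PLAG1-S folds of 21.1 and 19.3 and USF2 folds of 12.0 and 8.23. The clone 4 PLAG1-S summit of that peak lay 688 bp from the start of TIGD5, a neighbouring gene. A weaker EEF1D peak of both factors lay 22 bp from the start of NAPRT, and the promoter table gave no start for EEF1D. At EEF1B2 the clone 4 PLAG1-S summit lay 227 bp from its own start and 678 bp from that of NDUFS1. The mitochondrial elongation genes TUFM, TSFM, GFM1 and GFM2 had no USF2 peak in either clone.

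Of 15 genes of the amino acid response, 13 had a reproducible PLAG1-S peak (86.7%, 62.1 to 96.3%, against 52.0% of all protein-coding genes). A USF2 peak was at 6 (40.0%, 19.8 to 64.3%, against 10.3%) and a co-bound peak at 5 (33.3%, against 9.98%). ATF4 itself had PLAG1-S folds of 30.0 in clone 4 and 24.7 in clone 5 and USF2 folds of 12.9 and 6.65. The other co-bound genes were MTHFD2 (mitochondrial folate metabolism), SLC3A2 (a subunit of amino acid transporters), TRIB3 (an ATF4 target that restrains it) and CEBPB (an ATF4 partner). CHAC1, a glutathione-degrading enzyme, had reproducible peaks of both factors that did not meet the co-bound rule, although a PLAG1-S peak listed in clone 4 only overlapped its USF2 peak. PSAT1 (serine synthesis) and SLC7A11 (the cystine transporter) had no PLAG1-S peak in either clone. The shares of the 3 lists are descriptions, and no list was tested against another.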

How the data were processed

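ChIP-seq of PLAG1-S (anti-FLAG) and USF2 from 2 clones of K562 was analysed from the 4 peak lists the authors deposited, 1 per immunoprecipitated library. The tools the submitters' processing notes name are FastQC, cutadapt, HISAT2 2.0.4, SAMtools, MACS2, bedtools and HOMER, with hg38. Peaks had been called against merged inputs shared by all lists. Of the columns, the authors' score is the −log10 q multiplied by 10. The fold deposited by the authors is a ratio to local background at the summit, and the −log10 p and −log10 q deposited by the authors belong to the same base. These values were only described, ranked or filtered.

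Genes and promoters came from RefSeq (GRCh38.p14), and all 35 genes matched by symbol. The genes, lists and motifs were chosen with earlier results of these data known. Genes with a reproducible USF2 peak, with no PLAG1-S peak, with a peak in 1 clone only, and the 5 of each class with the highest reproducible clone 4 PLAG1-S fold were to be named with their values, and the strongest values of the remaining genes with a reproducible peak were added. Fragment numbers were recovered from fold and −log10 p within 0.001 in −log10 p, for at least 99.9% of peaks. The scripts were tested on simulated peaks. Python 3.11.15, numpy 2.4.6, pandas 2.3.3, scipy 1.17.1 and matplotlib 3.10.9 were used. No test was run. The labels name the clone of every library, and the clone therefore pairs the PLAG1-S library with the USF2 library. The alternatives tried were each clone alone, either clone, other overlaps, windows and co-bound distances, a stricter q and summits.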

Additional observations from a re-analysis of the deposited data

How the results depend on the processing

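The alternatives left 53 of 73 recomputed values within 1.5 times the reported count, or within the spread between clones for a median. With a −log10 q of at least 10 in every list, PLAG1-S was at 6 of 19 cytosolic and 8 of 16 mitochondrial genes. The main counts were 11 and 9, so the similar proportions of the classes did not hold at this q, and the difference was not tested. Cytosolic genes with USF2 fell to 1 and with a co-bound peak to 1 (GARS1 was lost), and the cytosolic median fold was 8.58. With a peak of either clone, USF2 was at 6 cytosolic and 5 mitochondrial genes and a co-bound peak at 5 and 4. No USF2 peak of either clone was at 68.4% of cytosolic, 68.8% of mitochondrial and 72.9% of all protein-coding genes. With 1 clone alone, cytosolic genes numbered 13 to 14 with PLAG1-S, 2 to 6 with USF2 and 2 to 5 with a co-bound peak, and mitochondrial genes 10 to 11, 2 to 4 and 1 to 3, the higher USF2 and co-bound values coming from the clone 4 lists, which hold more peaks. With clone 5 alone the medians were 5.91 (cytosolic) and 6.55 (mitochondrial). With the clone as a block, pairing the factors within each clone, 3.5 cytosolic and 2 mitochondrial genes on average had a co-bound peak. Within 1 kb of the start the cytosolic median was 7.01. Without the dual-localized GARS1 and KARS1, chosen after seeing the data, 10 cytosolic genes had PLAG1-S, 1 USF2 and 1 a co-bound peak. Shares of all protein-coding genes were not computed at the stricter q, for 1 clone alone or for co-binding in either clone. The counts at those settings therefore have no background beside them.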
